A study of Homo sapiens with 12 samples.

Results

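The insulin-like growth factor (IGF) axis was followed in RNA sequencing data from spheroids of the prostate cancer cell line DU145, an established human line. The 10 genes described are 5 IGF binding proteins (IGFBP2, IGFBP3, IGFBP4, IGFBP5 and IGFBP6), the receptors IGF1R and IGF2R, and the mRNA binding proteins IGF2BP1, IGF2BP2 and IGF2BP3. They were taken by their gene symbols from the 26485 genes of the tables. IGFBP2 was chosen because it was among the genes most raised in the line with restored α2 integrin, so its levels are given as a description without a test. The other 9 genes share its family or pathway and were listed by name, with earlier results of these data known. Counts over them beside all genes are therefore no independent test.

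All 3 lines carry a CRISPR-Cas9 knock-out of ITGA2, the gene of the collagen receptor subunit α2 integrin. DU145KO received nothing further, DU145KO+α2 was stably transfected with α2 integrin cDNA in the pawneo2 expression vector, and DU145KO+vector was stably transfected with the empty pawneo2 vector. The knock-out cells had been selected by the GFP of the editing vector and by loss of surface α2 integrin, and both transfected lines were kept under geneticin. Whether any line is a single clone is not given in the sources used here. Each line had 4 biological replicates, 12 samples in all, of spheroids of 8000 cells grown for 72 hours in serum-free medium.

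IGF1 and IGF2 are secreted hormones that signal through the receptor tyrosine kinase encoded by IGF1R, while the receptor encoded by IGF2R takes IGF2 into the cell for breakdown. IGF binding proteins hold the ligands outside the cell and limit or prolong their access to the receptor, and several also act on cells without binding a ligand. IGFBP2 carries an RGD motif through which it can bind integrins, and it is commonly raised in serum and tumours of men with prostate cancer. The IGF2BP proteins are not part of the secreted system: they bind IGF2 mRNA and many other transcripts in the cytoplasm and affect their stability and translation.

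The total count on genes ran from 13948734 to 19988111 per sample, with a median of 16446500.5. Levels are given as CPM, counts scaled to library size by TMM, and 3 counts corresponded to 0.150 to 0.215 CPM. ITGA2 checked the lines: its level was 305 ± 33.5 CPM in DU145KO+α2 (SD, n = 4), 20.7 ± 4.16 CPM in DU145KO and 17.6 ± 3.15 CPM in DU145KO+vector. Between DU145KO+vector and DU145KO its log2 fold change was -0.23 (adjusted p 0.534 by edgeR, and 0.0402 with the replicate number as a block). The epithelial markers KRT8, KRT18, KRT19, EPCAM and CDH1 were at 46.8 CPM or more in every sample. KLK3, KLK2 and FOLH1, markers of prostate luminal cells, had 0 counts in every sample. The leukocyte marker PTPRC and the fibroblast markers DCN and COL1A2 had at most 2 counts in any sample, LUM had 0 counts, and COL1A1 lay between 7.65 and 12.1 CPM. Of the 5 epithelial markers 3 fell in DU145KO+α2 against DU145KO by edgeR (KRT18, EPCAM and CDH1). In DU145KO+α2 against DU145KO+vector 1 fell (CDH1), and in DU145KO+vector against DU145KO 1 fell (EPCAM). Of all genes tested 8.17%, 11.9% and 2.34% had an adjusted p below 0.05 in these 3 comparisons, in either direction. With the replicate number as a block KRT8 also fell in DU145KO+α2 against both other lines (adjusted p 0.0476 against DU145KO and 0.0354 against DU145KO+vector). KRT18 then also fell against DU145KO+vector (adjusted p 0.00597). This made 4 of 5 against DU145KO and 3 of 5 against DU145KO+vector, beside 22.3% and 26.5% of all genes. The summed level of the 5 epithelial markers was 1211 to 1584 CPM in DU145KO, 860 to 1154 CPM in DU145KO+α2 and 1142 to 1387 CPM in DU145KO+vector. EPCAM had means of 159 ± 19.6, 72.1 ± 12.7 and 89.4 ± 5.17 CPM in this order of lines, and CDH1 of 135 ± 18.8, 61.3 ± 14.5 and 99.9 ± 13.4 CPM. The 8 markers of other cell types summed to 9.57 to 15.3 CPM in any sample. KDR, an endothelial marker at 0.575 to 2.98 CPM, was higher in DU145KO+α2 than in DU145KO+vector (log2 fold change 1.14, adjusted p 0.0183 by edgeR). Between DU145KO+α2 and DU145KO its log2 fold change was 0.05 (adjusted p 0.943). Its means were 2.26 CPM in DU145KO+α2, 2.17 CPM in DU145KO and 1.03 CPM in DU145KO+vector. In DU145KO+vector against DU145KO 0 of the 3 markers of other cell types that could be tested passed by edgeR. With the replicate block 1 passed, beside 2.34% and 13.4% of all genes. Only KDR had an unadjusted p below 0.05 there. The part of these markers in the results on the IGF axis was not tested. In bulk RNA, fewer cells expressing a gene and less of its RNA per cell cannot be told apart.

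IGFBP2 and IGFBP6 took opposite orders across the lines, and the 250 bases before the start of the main (MANE Select) transcript of each are shown for that reason. Both were read from the hg38 genome at the GENCODE positions and are written in the direction of transcription, in lower case with the GC box letters GGGCGG in capitals. IGFBP2 starts at position 216633420 of chromosome 2 on the plus strand, and its window is chr2:216633170-216633419. IGFBP6 starts at position 53097667 of chromosome 12 on the plus strand, with the window chr12:53097417-53097666.
IGFBP2: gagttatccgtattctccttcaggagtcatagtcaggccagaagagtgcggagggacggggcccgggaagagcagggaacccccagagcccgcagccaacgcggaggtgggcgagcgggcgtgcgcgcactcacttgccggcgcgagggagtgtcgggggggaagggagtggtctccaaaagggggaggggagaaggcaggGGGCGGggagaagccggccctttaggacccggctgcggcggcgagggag
IGFBP6: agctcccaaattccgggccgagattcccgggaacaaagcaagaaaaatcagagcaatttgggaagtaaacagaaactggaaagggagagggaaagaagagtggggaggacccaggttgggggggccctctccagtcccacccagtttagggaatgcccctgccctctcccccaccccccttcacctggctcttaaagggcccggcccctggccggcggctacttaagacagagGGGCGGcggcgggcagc

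Each window held 1 GC box, beginning 49 bases before the start in IGFBP2 and 17 bases before it in IGFBP6. On either strand GGGCGG was found in 60.8% of 14291 promoters of the same length. Neither window held the letters TATAAA (8.79% of promoters), CCAAT (34.9%), TGANTCA (4.67%) or CACGTG (7.98%). The motifs were searched separately on both strands, and matches of different motifs could overlap. The IGFBP2 window had 69.2% G and C with 22 CpG dinucleotides and the IGFBP6 window 61.2% with 9, against medians of 63.6% and 19 over all promoters.

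IGFBP2 was highest in DU145KO+α2, lower in DU145KO and lowest in DU145KO+vector. In DU145KO+α2 it was at 85.9, 54.1, 84.2 and 53.7 CPM in replicates 1 to 4. In DU145KO it was at 33.4, 15.3, 28.2 and 26.2 CPM. In DU145KO+vector it was at 17.4, 6.10, 8.11 and 4.82 CPM. Every DU145KO+α2 sample lay above every sample of the other lines, while DU145KO and DU145KO+vector overlapped through DU145KO replicate 2 and DU145KO+vector replicate 1. The samples that share a replicate number kept the order of the lines in 4 of 4 numbers, with 4.94 to 11.1 times as much in DU145KO+α2 as in DU145KO+vector and 2.05 to 3.53 times as much as in DU145KO.

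The log2 fold change of IGFBP2 was 2.90 (SE 0.39) between DU145KO+α2 and DU145KO+vector, the fifth highest of 14732 genes tested, and 1.43 (SE 0.36) between DU145KO+α2 and DU145KO, at rank 21. Between DU145KO+vector and DU145KO it was -1.47 (SE 0.39). No p-value is given for these values, since samples behind each of them entered the choice of the gene. Over the 20 alternative settings they ran from 2.70 to 3.45, from 1.25 to 1.59 and from -2.01 to -1.27. The values 3.45 and -2.01 were those without DU145KO+vector replicate 1. The 3 comparisons share samples in pairs, so their values are not independent of each other.

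**Figure D1:**
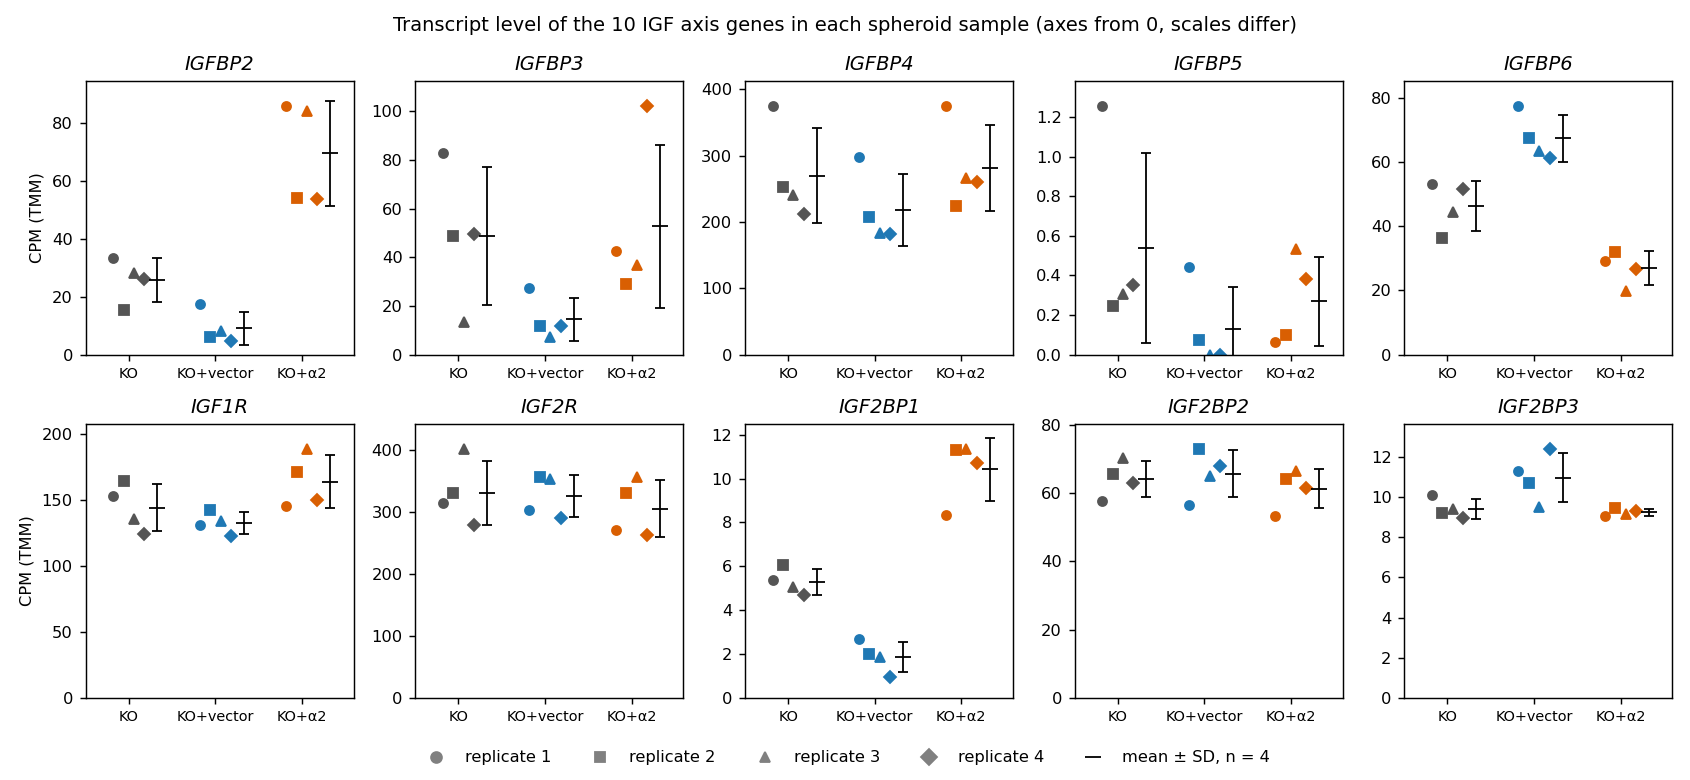
Level of each of the 10 genes in CPM (vertical axes from 0, scales differ) in the 3 lines, with a symbol for each replicate number and the mean ± SD of 4 samples as a bar. IGFBP2 and IGF2BP1 were highest in DU145KO+α2 and lowest in DU145KO+vector, IGFBP6 ran in the opposite order, and IGFBP5 stayed at or below 1.26 CPM.

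IGFBP2 lies at positions 216632828 to 216664436 of chromosome 2 (GRCh38), and its main transcript has 4 exons. The nearest gene is IGFBP5, on the minus strand and 7669 bases away, which had 0 to 19 counts per sample. Within 1 Mb of IGFBP2 lie 14 other genes of the tables, of which 8 had enough counts to be tested. By edgeR 0 of the 8 had an adjusted p below 0.05 in any of the 3 comparisons, also 0 by DESeq2 and by voom with limma, and 1, 0 and 1 had an unadjusted p below 0.05. By edgeR 11.9%, 8.17% and 2.34% of all genes tested passed in the 3 comparisons. With the replicate number as a block, 1, 1 and 0 of the 8 passed, where 26.5%, 22.3% and 13.4% of all genes did. Their log2 fold changes lay between -0.47 and 0.26 for DU145KO+α2 against DU145KO+vector, between -0.76 and 0.21 for DU145KO+α2 against DU145KO, and between -0.29 and 0.15 for DU145KO+vector against DU145KO.

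**Figure D2:**
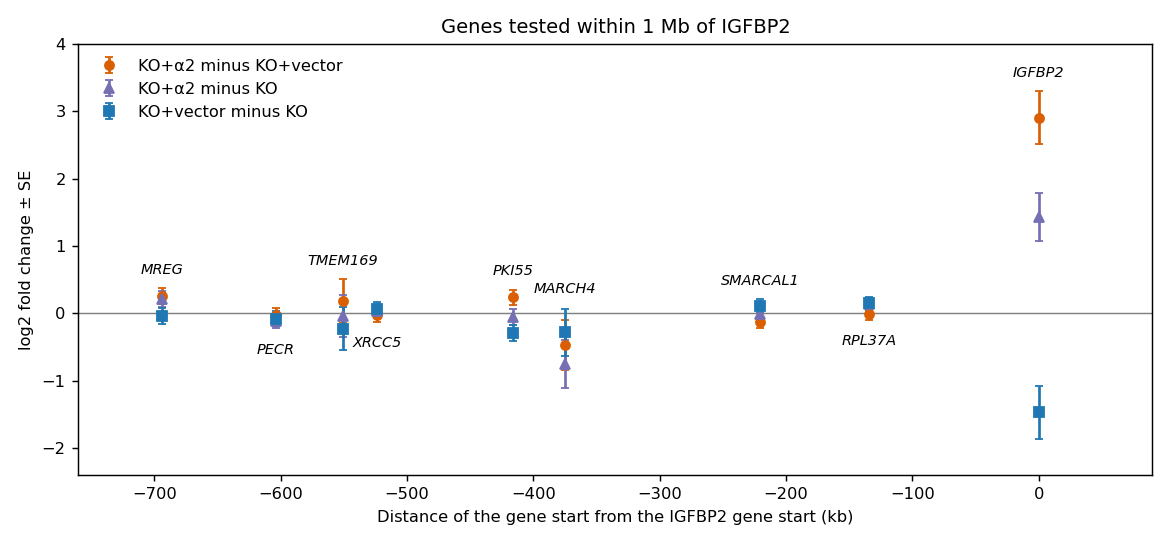
Log2 fold change with its SE (vertical axis) of IGFBP2 and the 8 genes tested within 1 Mb, against the distance of each gene start from the IGFBP2 gene start in kb, for the 3 comparisons. IGFBP2 stands at 2.90, 1.43 and -1.47, and no neighbour lies above 0.26 or below -0.76.

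Among the other binding proteins that could be tested, IGFBP6 ran in the opposite order to IGFBP2. The means of IGFBP3 and IGFBP4 had its order of lines, with overlap between DU145KO+α2 and DU145KO. IGFBP6, which binds IGF2 in preference to IGF1, had 53.1, 36.3, 44.4 and 51.6 CPM in the DU145KO replicates. It was at 29.3, 32.0, 19.9 and 26.6 CPM in DU145KO+α2. It was at 77.5, 67.5, 63.3 and 61.2 CPM in DU145KO+vector. The samples of the 3 lines did not overlap in any pair of lines, and IGFBP6 was lowest where IGFBP2 was highest. It fell in DU145KO+α2 against DU145KO+vector by 1.32 on the log2 scale (SE 0.14, adjusted p 6.61e-05 by edgeR). Against DU145KO it fell by 0.78 (SE 0.14, adjusted p 0.00349). For DU145KO+vector against DU145KO it stood at 0.54 (SE 0.14) with an adjusted p of 0.0599. This p was 0.0284 with the replicate block and ran from 0.0123 to 0.165 over the alternatives. Without DU145KO+α2 replicate 3 it was 0.0217.

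IGFBP3, the main carrier of IGFs in the circulation, varied widely between replicates. Its 4 samples of DU145KO+α2 were at 42.7, 29.0, 37.0 and 102 CPM, those of DU145KO at 82.6, 48.8, 13.5 and 49.7 CPM. In DU145KO+vector it was at 27.2, 11.7, 7.25 and 11.6 CPM. DU145KO+vector was the lowest line in 4 of 4 replicate numbers. The samples of DU145KO+α2 and DU145KO+vector did not overlap, but the highest and lowest samples of DU145KO differed more than the means of any pair of lines. DU145KO+α2 against DU145KO+vector gave 1.85 on the log2 scale (SE 0.62, adjusted p 0.0859 by edgeR). Blocking on the replicate number gave an adjusted p of 0.0424, and it ran from 0.0227 to 0.22 over the alternatives. Without DU145KO replicate 3 it was 0.0479. The log2 fold change was 0.11 (SE 0.58, adjusted p 0.945) between DU145KO+α2 and DU145KO, and it was -0.20 without DU145KO replicate 3 and -0.43 without DU145KO+α2 replicate 4. It was -1.74 in DU145KO+vector against DU145KO (SE 0.62, adjusted p 0.208).

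IGFBP4, an inhibitory binding protein that is cleaved by the protease PAPPA, was the most abundant of the binding proteins per gene length. It was at 374, 253, 241 and 212 CPM in DU145KO, at 375, 224, 266 and 261 CPM in DU145KO+α2 and at 299, 208, 184 and 182 CPM in DU145KO+vector. Replicate 1 was the highest in all 3 lines, and the lines overlapped, but DU145KO+vector was again the lowest in 4 of 4 numbers. The log2 fold changes were 0.37 (SE 0.22) for DU145KO+α2 against DU145KO+vector and -0.31 (SE 0.22) for DU145KO+vector against DU145KO, with adjusted p of 0.339 and 0.582 by edgeR. The replicate block gave 0.37 (SE 0.07, adjusted p 0.000237) and -0.30 (SE 0.07, adjusted p 0.00429). Over the alternatives the adjusted p ran up to 0.65 in the first of these comparisons and up to 0.875 in the second. DU145KO+α2 against DU145KO gave a log2 fold change of 0.06 (SE 0.22, adjusted p 0.919). It was -0.04 without DU145KO replicate 4 and -0.11 without DU145KO+α2 replicate 1. IGFBP5, a binding protein with affinity for extracellular matrix, had at most 19 counts in a sample and did not pass the filter on low counts, so no fold change is given.

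Per gene length, the make-up of the binding protein transcripts differed between the lines. Shares were taken of the summed RPKM values (reads scaled to gene length and library size) of IGFBP1 to IGFBP7. IGFBP4 held 58.7 ± 5.17% of the sum in DU145KO (SD, n = 4), 56.2 ± 3.51% in DU145KO+α2 and 54.2 ± 1.66% in DU145KO+vector. IGFBP2 held 8.82 ± 2.19%, 21.8 ± 4.42% and 3.37 ± 1.34% in the same order, and IGFBP6 held 23.8 ± 4.21%, 12.9 ± 3.74% and 39.5 ± 3.75%. IGFBP4 held the largest share in every sample, while the places of IGFBP2 and IGFBP6 changed. The ratio of IGFBP2 to IGFBP6 in RPKM was 1.14 to 2.86 in DU145KO+α2, 0.286 to 0.428 in DU145KO and 0.0533 to 0.152 in DU145KO+vector. IGFBP3 held 8.67 ± 3.90%, 9.04 ± 5.71% and 2.90 ± 1.09%. IGFBP1 and IGFBP7 had 0 counts in every sample, which allows up to 0.215 CPM in the shallowest library by counting error alone.

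**Figure D3:**
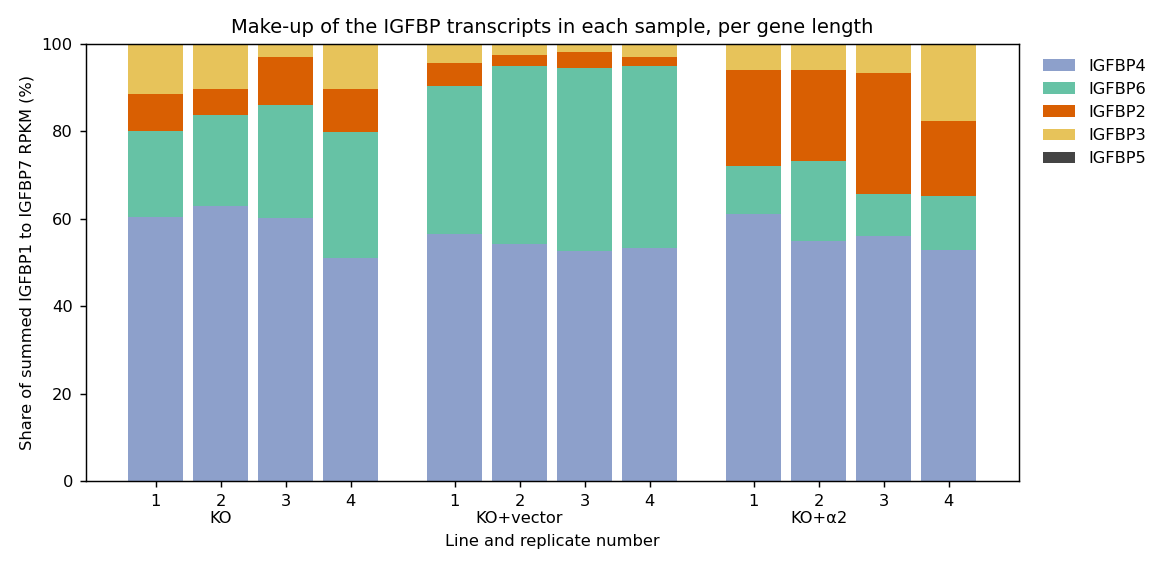
Share of each binding protein in the summed RPKM of IGFBP1 to IGFBP7 (percent, vertical axis from 0 to 100), one bar per sample, grouped by line. IGFBP2 held 17.0% to 27.7% in DU145KO+α2, 5.95% to 11.0% in DU145KO and 2.21% to 5.15% in DU145KO+vector, while IGFBP5 is too low to be seen.

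IGF1R was at 146, 171, 188 and 150 CPM in DU145KO+α2, at 153, 164, 135 and 124 CPM in DU145KO and at 131, 142, 134 and 122 CPM in DU145KO+vector. All DU145KO+α2 samples lay above all DU145KO+vector samples, and DU145KO overlapped with both. Their log2 fold change was 0.31 (SE 0.10), and the adjusted p of 0.0527 by edgeR missed the threshold narrowly. It was 0.00195 with the replicate block, ran from 0.00195 to 0.161 over the alternatives and was below 0.05 in 9 of 20. Leaving out DU145KO replicate 1, 2 or 4 or DU145KO+α2 replicate 1 gave adjusted p of 0.0494, 0.0471, 0.0369 and 0.037. The log2 fold changes against DU145KO were 0.19 (SE 0.10, adjusted p 0.293) for DU145KO+α2 and -0.12 (SE 0.10, adjusted p 0.632) for DU145KO+vector.

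The level of IGF2R did not separate the lines. It was at 314, 331, 402 and 278 CPM in DU145KO, at 270, 330, 357 and 263 CPM in DU145KO+α2 and at 303, 357, 353 and 290 CPM in DU145KO+vector. Replicate 4 was the lowest in all 3 lines. Its log2 fold changes were -0.09, -0.12 and -0.02 (SE 0.12 each) for DU145KO+α2 against DU145KO+vector, DU145KO+α2 against DU145KO and DU145KO+vector against DU145KO, with adjusted p of 0.708, 0.655 and 0.954.

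IGF2BP1, an oncofetal mRNA binding protein that is silent in most adult tissues, was the member whose pattern was most like that of IGFBP2. It was at 8.32, 11.3, 11.3 and 10.7 CPM in DU145KO+α2, at 5.36, 6.05, 5.04 and 4.68 CPM in DU145KO and at 2.66, 2.01, 1.84 and 0.964 CPM in DU145KO+vector. The 3 lines did not overlap, and the lowest DU145KO+vector sample rested on 14 counts. It rose in DU145KO+α2 against DU145KO+vector by a log2 fold change of 2.46 (SE 0.21, adjusted p 4.64e-06 by edgeR), the eleventh highest of all genes tested. Against DU145KO the log2 fold change was 0.98 (SE 0.19, adjusted p 0.00377). It fell in DU145KO+vector against DU145KO by 1.48 on the log2 scale (SE 0.22, adjusted p 0.00187). All 20 alternatives kept these directions with an adjusted p below 0.05 in each of the 3 comparisons.

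The paralogues of IGF2BP1 did not follow it. IGF2BP2, which is widely expressed in adult tissues, was at 57.8 to 70.4 CPM in DU145KO, 53.3 to 66.3 CPM in DU145KO+α2 and 56.5 to 72.9 CPM in DU145KO+vector. Its log2 fold changes of -0.10, -0.07 and 0.03 (SE 0.09 each) had adjusted p of 0.578, 0.759 and 0.922 in the order used for IGF2R. IGF2BP3, an oncofetal member like IGF2BP1, was at 8.96 to 10.1 CPM in DU145KO, 9.07 to 9.45 CPM in DU145KO+α2 and 9.49 to 12.4 CPM in DU145KO+vector. All of its DU145KO+α2 samples lay below all DU145KO+vector samples. Its log2 fold changes of -0.25, -0.03 and 0.22 (SE 0.11 each) had adjusted p of 0.164, 0.924 and 0.362. Of its exon bases 17.8% overlap with exons of MALSU1 on the opposite strand, and how the counting used strand is not given in the sources used here. In RPKM, which corrects for gene length, IGF2BP2 exceeded the others in every line, at 16.1 ± 1.39 in DU145KO+α2 (SD, n = 4) against 2.22 ± 0.0383 for IGF2BP3 and 1.19 ± 0.155 for IGF2BP1.

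**Figure D4:**
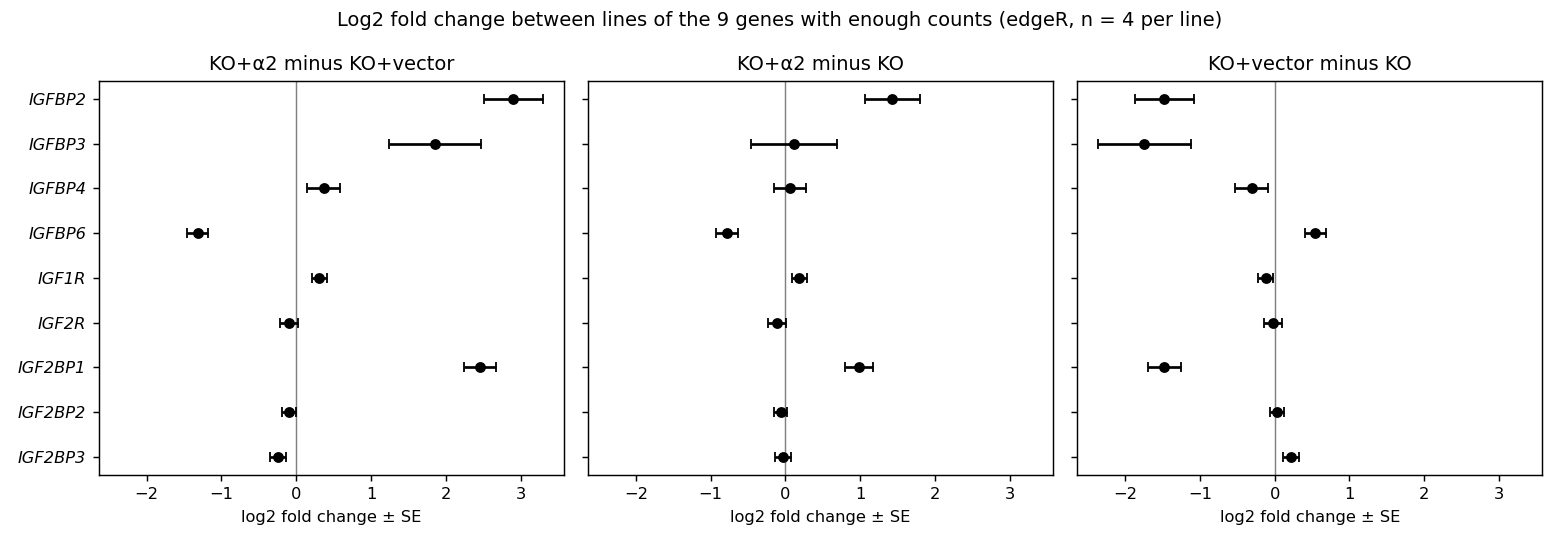
Log2 fold change with its SE (horizontal axis) of the 9 genes with enough counts, in the 3 comparisons, from 4 samples per line. IGFBP2 and IGF2BP1 lie to the right in both comparisons of DU145KO+α2 and to the left in that of the vector line, IGFBP6 lies on the opposite side of 0 in each, and IGF2R and IGF2BP2 stay within 0.12 of 0.

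Counts were made over the 8 members other than IGFBP2 that passed the filter on low counts, and IGFBP5 is the member that did not. Between DU145KO+α2 and DU145KO+vector 2 of 8 had an adjusted p below 0.05 (IGF2BP1 higher, IGFBP6 lower), where 11.9% of all genes tested did, 5.96% higher and 5.95% lower. Both were differentially expressed (DE, a fold change above 2 with an adjusted p below 0.05), as were 2.21% of all genes. The samples of these lines did not overlap for 5 of the 8, against 17.2% of all genes. Between DU145KO+α2 and DU145KO the same 2 members passed, where 8.17% of all genes did, 3.09% higher and 5.08% lower. Neither was DE, as 2.10% of all genes were, and both and no other member had no overlap, against 12.9% of all genes. In DU145KO+vector against DU145KO only IGF2BP1 passed and it was DE, where 2.34% of all genes passed, 0.496% higher and 1.84% lower, and 0.835% were DE. Here 2 of 8 members, IGF2BP1 and IGFBP6, did not overlap, against 8.76% of all genes. With the replicate block 5, 2 and 3 of the 8 passed in the 3 comparisons, beside 26.5%, 22.3% and 13.4% of all genes. The median log2 fold change of the 8 was 0.11, 0.02 and -0.07, beside -0.0062, -0.0031 and -0.0011 over all genes tested. Members moved in both directions, and the median of the absolute log2 fold change was 0.34, 0.12 and 0.26. Over all genes tested this was 0.14, 0.13 and 0.11.

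Further genes of the axis were taken from 8 lists with 49 genes, of which 38 could be tested. These lists too were drawn up with earlier results of these data known. Between DU145KO+α2 and DU145KO+vector 6 rose and 2 fell, between DU145KO+α2 and DU145KO 2 rose and 2 fell, and between DU145KO+vector and DU145KO 2 fell, with 30, 34 and 36 that did not pass. The genes that passed were 21.1%, 10.5% and 5.26% of the 38, beside 11.9%, 8.17% and 2.34% of all genes tested. Under the block 12, 11 and 7 of the 38 passed, beside 26.5%, 22.3% and 13.4% of all genes. The median log2 fold changes of the 38 were 0.02, -0.01 and -0.08. Their medians of the absolute log2 fold change were 0.14, 0.15 and 0.12, beside 0.14, 0.13 and 0.11 over all genes.

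Ligand transcripts were scarce. IGF1 had 1 to 10 counts per sample, IGF2 had 1 count in each of 2 samples and 0 in the others, and INS, which encodes insulin, had 0 counts in every sample. None of the 3 ligands could be tested. Of the other receptors, INSRR, which encodes an orphan receptor of the insulin receptor family, had at most 2 counts. INSR, the insulin receptor gene, was at 27.3, 31.7, 37.2 and 28.5 CPM in DU145KO+α2, at 27.9, 31.3, 31.7 and 24.4 CPM in DU145KO and at 25.0, 26.6, 27.5 and 21.0 CPM in DU145KO+vector. The lines overlapped, but DU145KO+α2 exceeded DU145KO+vector in 4 of 4 replicate numbers. The log2 fold change was 0.32 (SE 0.12) with an adjusted p of 0.0922 by edgeR and of 0.00204 with the replicate block, and up to 0.267 over the alternatives. Among the other binding proteins, IGFALS, the acid labile subunit of the circulating complex, had 1 to 7 counts. IGFBPL1, a protein related to the binding proteins, was at 53.8, 57.7, 47.1 and 48.8 CPM in DU145KO+α2, at 60.7, 59.1, 51.3 and 67.2 CPM in DU145KO and at 72.1, 73.6, 60.2 and 68.3 CPM in DU145KO+vector. It fell in DU145KO+α2 against DU145KO+vector by 0.40 on the log2 scale (SE 0.09, adjusted p 0.0102). Its log2 fold changes against DU145KO were -0.20 (SE 0.09, adjusted p 0.234) in DU145KO+α2 and 0.20 (SE 0.09, adjusted p 0.324) in DU145KO+vector. Under the replicate block these adjusted p became 0.028 and 0.0368, and over the alternatives they ran up to 0.49 and 0.588. Within 5 Mb of IGFBPL1 the other 81 genes tested had a median log2 fold change of -0.54 between DU145KO+α2 and DU145KO+vector, and 77 of them were lower. Of the same 81 genes 74 were lower in DU145KO+α2 than in DU145KO (median -0.28) and 68 were higher in DU145KO+vector than in DU145KO (median 0.24).

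Of 5 proteases of the binding proteins and their regulators, 1 rose between DU145KO+α2 and DU145KO+vector, 1 fell between DU145KO+α2 and DU145KO, and 2 fell between DU145KO+vector and DU145KO, where 11.9%, 8.17% and 2.34% of all genes passed in either direction. PAPPA, which encodes the metalloproteinase that cleaves IGFBP4 and releases bound IGF, was at 6.35, 5.25, 5.66 and 4.27 CPM in DU145KO. It was at 0.869, 1.05, 0.532 and 1.02 CPM in DU145KO+α2 and at 2.44, 1.80, 1.04 and 0.758 CPM in DU145KO+vector. Both transfected lines lay below DU145KO in every sample and overlapped with each other. Against DU145KO it fell by 2.62 on the log2 scale in DU145KO+α2 (SE 0.30, adjusted p 7.16e-05 by edgeR) and by 1.82 in DU145KO+vector (SE 0.28, adjusted p 0.0028). DU145KO+α2 against DU145KO+vector gave a log2 fold change of -0.80 (SE 0.34, adjusted p 0.15). Within 5 Mb of PAPPA 48 of the other 54 genes tested were lower in this comparison (median log2 fold change -0.27). Of the same 54 genes 41 were lower in DU145KO+α2 than in DU145KO (median -0.13) and 42 were higher in DU145KO+vector than in DU145KO (median 0.16). PAPPA shares 21.1% of its exon bases with PAPPA-AS1 on the opposite strand, which had 23 counts over the 12 samples against 505 for PAPPA.

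STC1 encodes a secreted glycoprotein that inhibits PAPPA, and its order of lines was that of IGFBP2. It was at 12.3, 11.3, 12.7 and 20.2 CPM in DU145KO+α2, at 8.07, 7.82, 7.19 and 5.74 CPM in DU145KO and at 4.10, 2.44, 1.21 and 1.03 CPM in DU145KO+vector. The lines did not overlap in any pair. It rose in DU145KO+α2 against DU145KO+vector by a log2 fold change of 2.66 (SE 0.34, adjusted p 0.000282 by edgeR). In DU145KO+vector it fell by 1.69 on the log2 scale against DU145KO (SE 0.35, adjusted p 0.023). The second adjusted p was 0.0775, 0.0683 and 0.05 without DU145KO replicate 1, 2 or 3 and 0.0657 and 0.0699 without DU145KO+vector replicate 2 or 3. Between DU145KO+α2 and DU145KO the log2 fold change was 0.97 (SE 0.30, adjusted p 0.0679), with adjusted p of 0.00653 to 0.182 over the alternatives and of 0.0103 and 0.0382 without DU145KO+vector replicate 1 or 4. The other 68 genes tested within 5 Mb of STC1 had a median log2 fold change of 0.47 between DU145KO+α2 and DU145KO+vector, and 65 of them were higher. Of the same 68 genes 64 were higher in DU145KO+α2 than in DU145KO (median 0.30) and 59 were lower in DU145KO+vector than in DU145KO (median -0.19). PAPPA2, STC2 and HTRA1 did not pass in any comparison. Of these 3, STC2, named after the values were seen, passed between DU145KO+α2 and DU145KO with the replicate block, at a log2 fold change of -0.72 and an adjusted p of 0.0446.

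Of 6 adaptors of the IGF1 and insulin receptors that could be tested, 3 rose between DU145KO+α2 and DU145KO+vector and 2 between DU145KO+α2 and DU145KO, and 0 passed between DU145KO+vector and DU145KO by edgeR, beside 11.9%, 8.17% and 2.34% of all genes. In that last comparison 1 had an unadjusted p below 0.05 (SHC1), and 0 passed by DESeq2 and by voom with limma. IRS1, the main docking protein of both receptors, was at 83.5, 110, 106 and 98.5 CPM in DU145KO+α2, at 65.9, 82.3, 67.7 and 74.9 CPM in DU145KO and at 77.2, 73.3, 79.8 and 71.4 CPM in DU145KO+vector. The samples of DU145KO+α2 lay above those of both other lines. Its log2 fold change was 0.40 (SE 0.09, adjusted p 0.0091 by edgeR) against DU145KO+vector and 0.45 (SE 0.09, adjusted p 0.00521) against DU145KO. IRS2, the second docking protein, was at 93.7, 88.0, 106 and 89.7 CPM in DU145KO+α2, at 68.1, 67.1, 80.3 and 56.7 CPM in DU145KO and at 62.8, 72.0, 64.5 and 44.5 CPM in DU145KO+vector. Here too DU145KO+α2 did not overlap with either line. The log2 fold change of IRS2 was 0.63 (SE 0.13, adjusted p 0.00537) against DU145KO+vector and 0.47 (SE 0.13, adjusted p 0.037) against DU145KO. The second of these lost the call without any 1 of 7 samples, namely DU145KO replicate 1, 2 or 4 or any DU145KO+α2 replicate, with adjusted p up to 0.0936.

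SHC1, which links activated receptors to RAS signalling, was at 1166, 1001, 1090 and 1189 CPM in DU145KO+α2, at 1148, 829, 838 and 868 CPM in DU145KO and at 907, 694, 700 and 729 CPM in DU145KO+vector. It rose against DU145KO+vector by a log2 fold change of 0.55 (SE 0.12, adjusted p 0.00522 by edgeR). Against DU145KO the log2 fold change was 0.27 (SE 0.12, adjusted p 0.184). Without DU145KO replicate 1, which stood apart from the other 3 samples of its line, it was 0.41 with an adjusted p of 0.0293. DU145KO+vector against DU145KO gave -0.28 (SE 0.12, adjusted p 0.259). Blocked by replicate number, the comparisons with DU145KO had adjusted p of 0.00234 and 0.00557, and over the alternatives these ran up to 0.391 and 0.594. SHC1 shares 7.72% of its exon bases with PYGO2 on the same strand. GRB2, GRB10 and GRB14 did not pass in any comparison, and IRS4 had 0 counts in every sample.

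**Figure D5:**
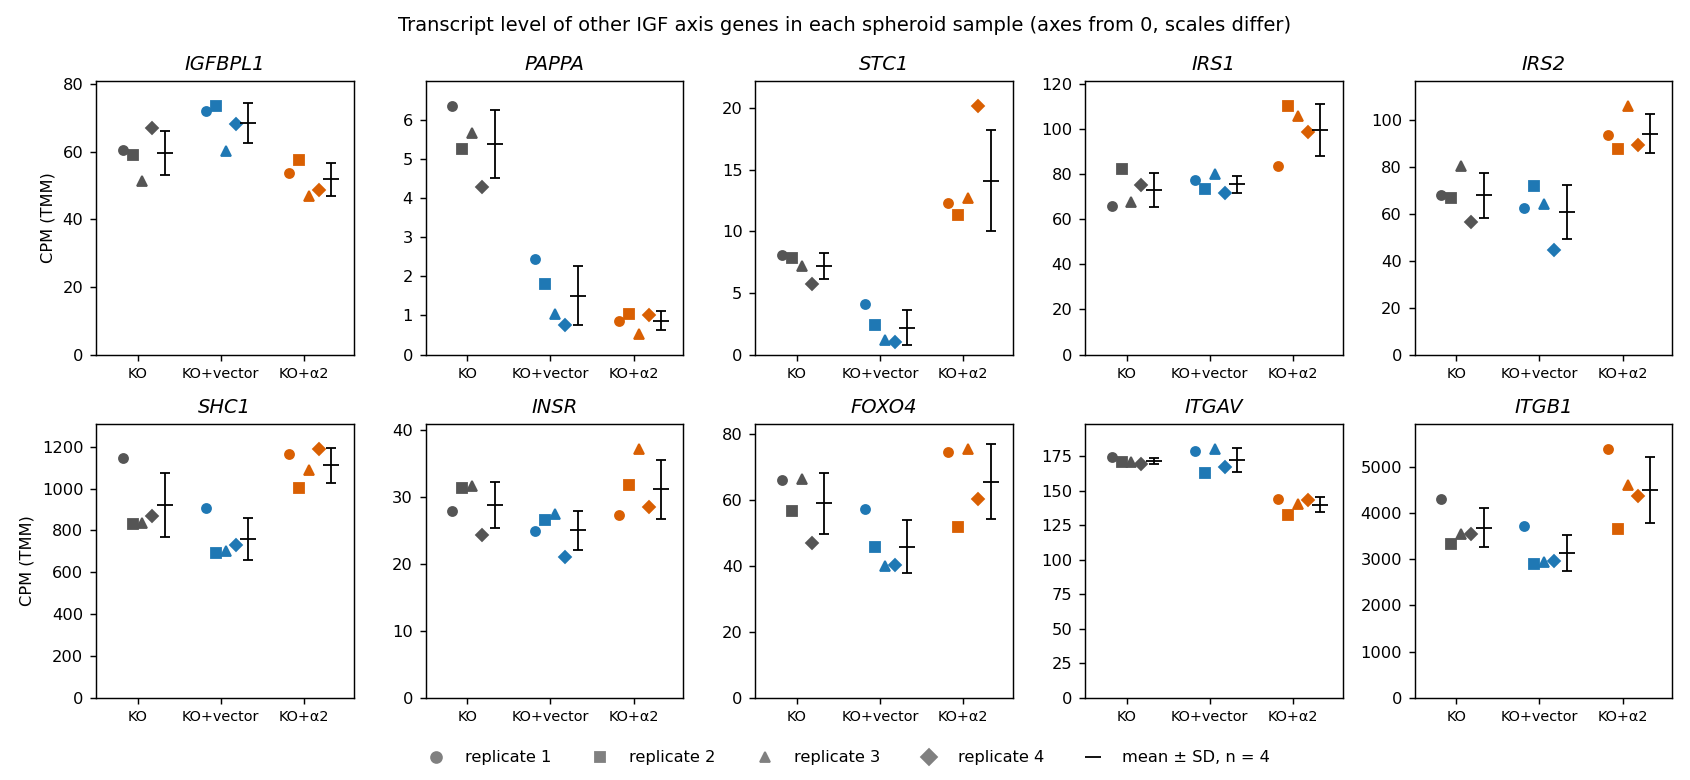
Level of 10 further IGF axis genes in CPM (vertical axes from 0, scales differ) in the 3 lines, with a symbol for each replicate number and the mean ± SD of 4 samples as a bar. PAPPA was above 4 CPM in DU145KO alone, STC1 followed the order of IGFBP2, and IRS1 and IRS2 were higher in all DU145KO+α2 samples than in the other lines.

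Of 15 genes of the PI3K, AKT and FOXO chain downstream of the receptors, 1 rose between DU145KO+α2 and DU145KO+vector and 0 passed by edgeR in the other comparisons, beside 11.9%, 8.17% and 2.34% of all genes. In DU145KO+α2 against DU145KO 2 of the 15 had an unadjusted p below 0.05, 1 passed by DESeq2 and 0 by voom with limma, and in DU145KO+vector against DU145KO these counts were 1, 0 and 0. No share of all genes by unadjusted p, DESeq2 or voom is set beside these counts, so no excess is read from them. The gene that rose was FOXO4, a transcription factor that AKT keeps out of the nucleus, which had 74.6, 51.9, 75.5 and 60.5 CPM in DU145KO+α2, values of 66.1, 56.6, 66.4 and 47.0 CPM in DU145KO and values of 57.4, 45.7, 40.0 and 40.4 CPM in DU145KO+vector. The lines overlapped, and the log2 fold change was 0.51 (SE 0.15, adjusted p 0.0372 by edgeR). The adjusted p ran from 0.0024 to 0.11 over the alternatives and was below 0.05 in 12 of 20. It exceeded 0.05 without DU145KO replicate 2, without DU145KO+α2 replicate 1, 3 or 4 and without DU145KO+vector replicate 2, 3 or 4. With no filter on low counts it was 0.0513. Between DU145KO+vector and DU145KO its log2 fold change was -0.36, with an adjusted p of 0.266 that was 0.0351 with the replicate block and up to 0.503 over the alternatives. With the block 4, 3 and 1 of the 15 genes passed in the 3 comparisons, beside 26.5%, 22.3% and 13.4% of all genes. The genes that passed under the block besides FOXO4 are named after their values were seen. TSC1, a subunit of the complex that restrains MTOR, was lower in DU145KO+α2 in 4 of 4 replicate numbers, with blocked log2 fold changes of -0.34 against DU145KO+vector (adjusted p 2.19e-05, and 0.121 without the block) and -0.20 against DU145KO (adjusted p 0.00607, and 0.44 without it). PIK3R2, a regulatory subunit of PI3K, had blocked values of -0.20 (adjusted p 0.0146) and -0.18 (adjusted p 0.0332) in these comparisons. FOXO1 stood at 0.33 against DU145KO+vector (adjusted p 0.0311) and AKT2 at 0.16 against DU145KO (adjusted p 0.0248) with the block.

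Of 6 surface partners of the binding proteins that could be tested, 1 rose and 1 fell between DU145KO+α2 and DU145KO+vector, and 1 fell between DU145KO+α2 and DU145KO, where 11.9% and 8.17% of all genes passed. Between DU145KO+vector and DU145KO, where 2.34% of all genes passed, 0 passed by edgeR, DESeq2 and voom with limma, and 0 had an unadjusted p below 0.05. ITGAV, the integrin subunit αV, which forms RGD receptors, was at 144, 133, 140 and 143 CPM in DU145KO+α2, at 175, 171, 171 and 169 CPM in DU145KO and at 179, 163, 180 and 167 CPM in DU145KO+vector. The samples of DU145KO+α2 lay below those of both other lines. ITGAV fell by 0.30 on the log2 scale against DU145KO+vector (SE 0.06, adjusted p 0.00408 by edgeR) and by 0.29 against DU145KO (SE 0.06, adjusted p 0.00615). ITGB1, the integrin subunit β1, which pairs with α2, was at 5384, 3655, 4614 and 4377 CPM in DU145KO+α2, at 4299, 3339, 3542 and 3547 CPM in DU145KO and at 3729, 2899, 2947 and 2961 CPM in DU145KO+vector. Replicate 1 was the highest and replicate 2 the lowest in all 3 lines, and DU145KO+α2 was the highest line in 4 of 4 numbers. Its log2 fold change was 0.52 (SE 0.13, adjusted p 0.0123) against DU145KO+vector and 0.29 (SE 0.13, adjusted p 0.191) against DU145KO, and -0.23 (SE 0.13, adjusted p 0.422) between DU145KO+vector and DU145KO. The comparisons with DU145KO had adjusted p of 0.00214 and 0.0169 with the replicate block, and over the alternatives they ran up to 0.438 and 0.719. ITGA5, ITGB3, LRP1 and TMEM219 did not pass in any comparison, and PTPRZ1 had at most 5 counts. Of 6 partners and targets of the IGF2BP proteins, HMGA1, HMGA2, MYC and CD44 did not pass in any comparison by edgeR, DESeq2 or voom with limma, and LIN28B and H19 had at most 10 counts. Of these 4 only MYC, named after its values were seen, had an unadjusted p below 0.05, between DU145KO+vector and DU145KO, where its log2 fold change was -0.19 (SE 0.09, adjusted p 0.322) and the adjusted p with the replicate block was 0.041.

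Genes with a pattern like that of IGFBP2 were sought by Pearson's r of the log2 CPM over the 12 samples, among the 12850 genes whose average log2 CPM reached 1. The highest r belonged to IL17RB (0.97), GFAP (0.97), CACNA1D (0.97), MCF2L (0.97) and TNNI3 (0.96), and the lowest to SLC25A51, MRPL18 and CLTA (-0.96 each). IGF2BP1 was at rank 28 with r = 0.93 and STC1 at rank 54 with r = 0.91, while IGFBP6 had r = -0.81. ITGB1 at rank 67 and SHC1 at rank 72 also had r = 0.91. These points share lines, replicate numbers and the choice of IGFBP2, and no p-value is given. After the mean of each line was taken off, GFAP remained at r = 0.95, IGFBP4 was at 0.68, IGF2BP1 at 0.45 and IGFBP6 at 0.38. Named after their values were seen, ITGB1 then stood at 0.77, FOXO4 at 0.69 and SHC1 at 0.66. On the other side HMGA1 stood at -0.68, FOXO3 at -0.66 and IGF2BP2 at -0.63.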

How the data were processed

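RNA from spheroids of 3 DU145 derivatives, with 4 replicates each, was sequenced from stranded mRNA libraries as single-end reads. The authors called bases with bcl2fastq 1.8.4, aligned the reads to hg38 with TopHat2 2.1.0, counted uniquely aligned reads on known genes with Subread 1.5.0 and deposited these read counts without normalization. The authors also deposited RPKM values, which equal the count over a gene length and a sample factor, the latter within 1.70% of the TMM factors computed here. The RPKM values were used only to compare levels between genes.

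The main test was that of edgeR 4.0.16 under R 4.3.3. DESeq2 1.42.0 and limma 3.58.1 served as alternatives. The filter of filterByExpr (minimum count 10) kept 14732 of 26485 genes. All 12 samples entered 1 quasi-likelihood fit with TMM scaling and robust dispersions, without a block for the replicate number. Tests were two-sided, and p-values were adjusted over all genes tested by the Benjamini-Hochberg method. On simulated counts of 14691 genes for DU145KO+α2 against DU145KO+vector, edgeR recovered 199 of 200 genes changed by 1.5 on the log2 scale. In the measured counts IGFBP3 did not pass in this comparison at a log2 fold change of 1.85 (SE 0.62, adjusted p 0.0859 by edgeR). Recovery for measured genes with such a spread between replicates was not tested. Alternatives were DESeq2's size factors, library size alone, no filter, at least 10 counts in every sample, the DESeq2 Wald test, voom with limma, the compared lines only, the replicate block, and leaving out every sample once.

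Samples with the same replicate number deviated together from their line means in all 12 pairs (r 0.17 to 0.68, mean 0.48, over 12851 genes). For different numbers r ran from -0.38 to 0.24, with a mean of -0.16. By this check the numbers, taken from the labels, pair the samples, least clearly for replicate 2. DU145KO replicate 2 had r = 0.17 with DU145KO+α2 replicate 2 and 0.18 with DU145KO+α2 replicate 3. The main test nevertheless has no block, and values or counts with the block are given beside the tests reported here whose call it changes. No replicates of a line agreed within sampling noise (chi-square per degree of freedom 6.98 to 23.7 over genes). Detection limits of 3 counts cover counting error only. Positions come from RefSeq and GENCODE on GRCh38, and promoter windows from hg38.

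The members and the gene lists were chosen with earlier results of these data known. Genes named are the members, ITGA2, list genes with an adjusted p below 0.05 in at least 1 comparison, ligands, receptors and other binding proteins, the 5 genes with the highest and the 3 with the lowest correlation with IGFBP2, cell type markers, and neighbouring or overlapping genes. The other list genes are named to account for every gene of a list. STC2, MYC, TSC1, PIK3R2, FOXO1, AKT2, FOXO3 and HMGA1 are given with values chosen after these were seen. Sequencing lanes were not used here. Some markers of prostate luminal cells are not reported here.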

Additional observations from a re-analysis of the deposited data

Results flagged for a closer look

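In groups of 4 samples, 8 of the 71 groups of a gene and a line had 1 sample apart from the other 3 by Dixon's criterion (the gap to the nearest sample over the range), and chance alone flags about 3.55. For 2 of the 8, both of IGF2, the gap follows from a single count. Among the 69 groups with more than 1 sample above 0 there were 6, where chance gives about 3.45. IGFBP5 in DU145KO replicate 1 had 19 counts against 4 to 6 in the other samples (gap over range 0.894), and in DU145KO+vector replicate 1 it had 8 counts against 0 to 1 (0.838). IGF2 had 1 count in DU145KO replicate 3 and 1 count in DU145KO+α2 replicate 1 with 0 in the other samples, so the gap over range was 1 in both. STC1 in DU145KO+α2 replicate 4 was at 20.2 CPM against 11.3 to 12.7 CPM (0.842). SHC1 in DU145KO replicate 1 was at 1148 CPM against 829 to 868 CPM (0.876), and in DU145KO+vector replicate 1 at 907 CPM against 694 to 729 CPM (0.838). ITGB1 in DU145KO+vector replicate 1 was at 3729 CPM against 2899 to 2961 CPM (0.926).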

How the results depend on the processing

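The log2 fold changes of 57 single genes and comparisons were recomputed under the alternatives, 1137 values in all, of which 1070 kept their direction and their side of the threshold (for IGFBP2, which has no test, their direction and size). Another scaling changed 1 call of 114, that of IGF1R. The replicate block brought 13 further values past the threshold and changed no other call. With the block 3911, 3286 and 1980 genes had an adjusted p below 0.05 in DU145KO+α2 against DU145KO+vector, DU145KO+α2 against DU145KO and DU145KO+vector against DU145KO, in place of 1754, 1203 and 344, and 218 in place of 123 were DE in the last. Requiring 10 counts or more in each sample left 178, 160 and 61 DE genes in place of 325, 309 and 123, among fewer genes tested. The DESeq2 Wald test called 587 genes in DU145KO+vector against DU145KO. Of the members other than IGFBP2, 4 passed by DESeq2 and 5 with the block in DU145KO+α2 against DU145KO+vector, in place of 2. In DU145KO+vector against DU145KO 2 passed by DESeq2, voom with limma and the compared lines only, and 3 with the block, in place of 1. Over the alternatives 1229 to 3911 of all genes passed in the first of these comparisons and 160 to 1980 in the second. The counts of members are not set against the share of all genes in each setting, so no excess is read from them.

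With each sample left out in turn, the log2 fold change of IGFBP2 was 2.70 to 3.45 against DU145KO+vector and 1.25 to 1.59 against DU145KO in DU145KO+α2, and -2.01 to -1.27 in DU145KO+vector against DU145KO. In the last comparison 160 to 528 genes passed, 79 to 196 were DE, and 1 to 2 members passed, with 2 without DU145KO+α2 replicate 3. The lowest of these counts came without DU145KO+vector replicate 3, and the highest without DU145KO replicate 4 for genes that passed and without DU145KO+vector replicate 1 for DE genes. Without DU145KO replicate 1 or 2 or DU145KO+vector replicate 2 or 4, 177, 180, 193 and 181 genes passed. Of the members, 0 to 1 were DE in DU145KO+α2 against DU145KO, where the single call, IGF2BP1, came without DU145KO replicate 2 or DU145KO+α2 replicate 1. Values near 0 changed sign: in DU145KO+α2 against DU145KO IGFBP3 ran from -0.43 to 0.50, IGFBP4 from -0.11 to 0.27, IGF2BP2 from -0.0997 to 4e-04 and IGF2BP3 from -0.0519 to 0.0202. In DU145KO+vector against DU145KO IGF2BP2 ran from -0.0222 to 0.0989, IGF2R from -0.0996 to 0.0809 and ITGAV from -0.0159 to 0.0324. The cause of these changes was not tested.

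All 3 lines come from 1 edited line, and spheroids were sampled at 1 time, so a difference between lines and a difference between their selection histories cannot be told apart. Replicates of a line measure the spread between cultures. IGFBP5 and the ligands were too low to compare at this depth.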
